A study of Saccharomyces cerevisiae with 142 samples.

Results

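Wild-type budding yeast, Saccharomyces cerevisiae, was followed through its cell cycle at 30 °C, and 2 neighbouring stretches of that time course were compared. The early window holds the arrays taken at 94, 102, 110 and 118 min and the late window those taken at 126, 134, 142 and 150 min. These 8 arrays of the 142 in the series were picked by strain, temperature and time in their labels, and by no measured value. The strain was BF264-15DU MATa with bar1, grown in rich dextrose medium with 1 M sorbitol at 30 °C, and both windows share all of this. Elutriation, in which a centrifuge separates small cells from large, had supplied unbudded G1 cells, so that the culture moved through the cycle together. There were 2 such time courses, replicate 1 sampled at 94, 110, 126 and 142 min and replicate 2 at 102, 118, 134 and 150 min, so each course gave 2 arrays to each window. A cyclin mutant at the same times in the same medium, also 8 arrays from 2 courses, serves as the comparison. Its labels give clb1::URA3 with clb2::LEU2, clb3::TRP1 with clb4::HIS2, and clb5::ARG4 with clb6::APE1, together with GAL1-CLB1:LEU2, a CLB1 copy behind a promoter that galactose switches on and dextrose keeps low. The labels mark the arrays of both strains as analysed again by the authors of the series, whose own subject was transcription in cells arrested in mitosis.

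As background, cell cycle transcription in budding yeast runs as a relay. The factors SBF and MBF switch on the G1 cyclins and the DNA replication genes as cells commit to division. A complex of Mcm1, Fkh2 and Ndd1 then switches on the CLB2 cluster, the genes for mitotic cyclins and for the machinery of mitosis and cytokinesis, with help from the kinase that those cyclins activate. Among its products is Swi5, which waits in the cytoplasm until mitotic exit and then turns on genes for the next G1. B-type cyclins with Cdk1 both start DNA replication and drive mitosis.

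Values are log2 of the deposited probe-set intensities, and in each sentence that lists 4 values for a window the arrays stand in order of time. Replicate 2 correlated with replicate 1 at a Pearson r of 0.0461 over 5900 probe sets in the order deposited, and at 0.996 with its values moved up 1 row, and is used here in the moved order. Other shifts within 10 rows reached at most 0.0494, and no label mentions a displacement. After the move, every one of the 8 arrays correlated at 0.978 to 0.990 with the mean of replicate 1, and their median intensities lay between 1115 and 1138. The signal of the 3' TDH1 control probe set over the 5' one, a measure of RNA quality, averaged 2.21 ± 0.22 (SD, n = 4) on the log2 scale early and 1.95 ± 0.23 late, and the part of that shift in any result was not tested. The same measure for ACT1 lay between 0.29 and 0.43 in all 8 arrays. In whole cultures, fewer cells at a stage and less RNA per cell cannot be told apart, and neither can time since elutriation and cell cycle stage. Each window holds successive samples of the same 2 cultures. The p-values of the window and strain comparisons thus measure the spread of arrays about their window mean, with courses as blocks. That spread includes the drift within a window.

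The names S phase and mitosis were set beside the gene lists over the whole course. The lists were drawn up with earlier results of these data known, so their peaks are no independent check of the names. The 15 measured G1 cyclin and Start genes had their highest mean at 94 min in replicate 1 and at 102 min in replicate 2, and so did the 29 DNA polymerase and fork genes. The 7 measured core histone genes, whose mRNA accumulates during DNA replication, had their highest mean at 110 and 118 min, at 13.87 and 13.88. The CLB2 cluster had its highest mean at 142 min in replicate 1 and at 150 min in replicate 2, at 11.04 and 11.01, but had already climbed within the early window, from 8.82 at 94 min to 9.89 at 118 min. By these markers the early window runs from the G1/S peak through the histone peak and holds the start of the CLB2 wave, and the late window holds the peak of that wave. The late window is mixed at both ends. Histone means at 126 and 134 min were 13.68 and 13.70, against 13.68 and 13.64 at 94 and 102 min. The mean of 11 Mcm1 early G1 genes climbed from 10.05 and 10.11 at 126 and 134 min to 10.69 and 10.73 at 142 and 150 min.

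**Figure D1:**
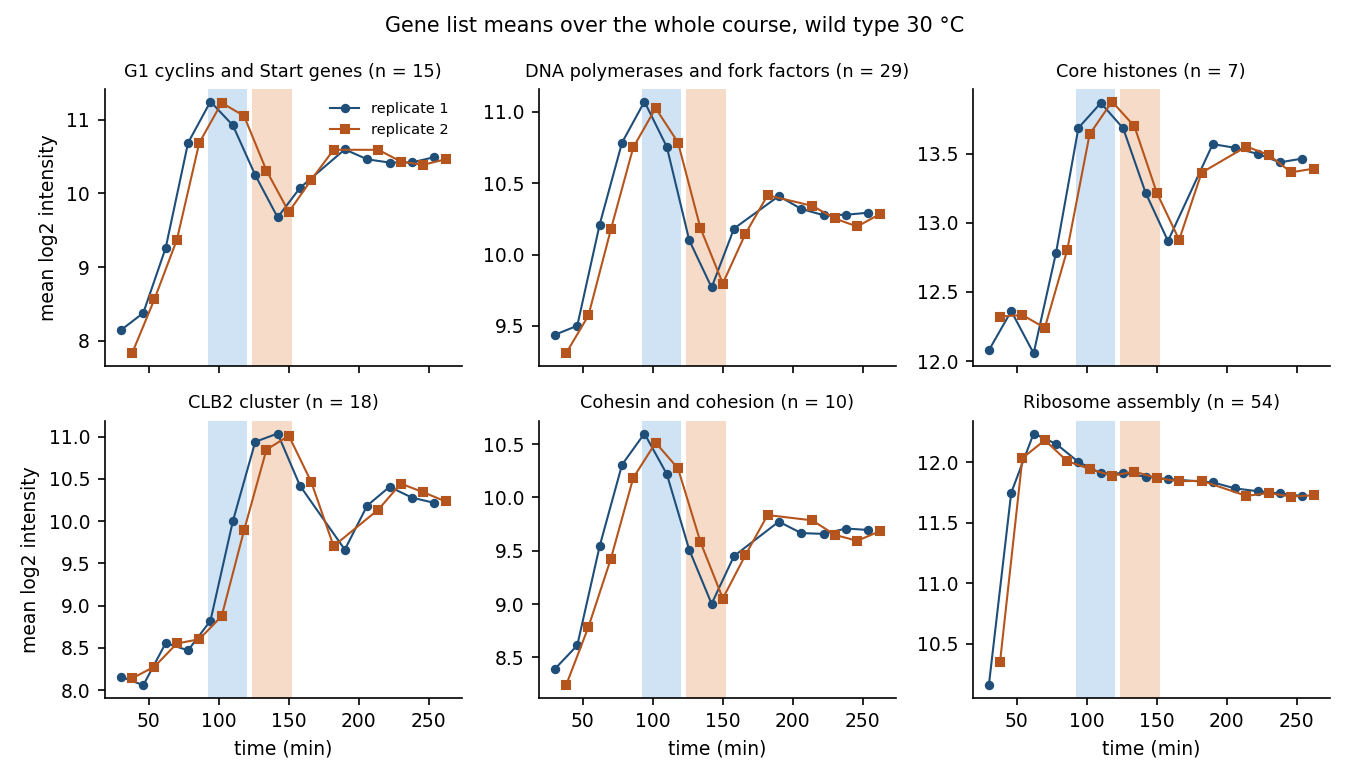
Mean log2 intensity (vertical axis) of 6 gene lists against time in minutes in wild type at 30 °C, replicate 1 as circles and replicate 2 as squares, with the early window shaded blue and the late window orange. The G1 cyclin, fork and cohesion lists peak at the start of the early window, the histones at its end and the CLB2 cluster in the late window, while the 54 ribosome assembly genes stay nearly level across both windows.

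Between the windows 46 of 5449 genes were higher late (0.844%) and 88 were lower late (1.61%), 134 in all (2.46%), at a limma adjusted p under 0.05 and a log2 difference of at least 1, that is, 2-fold. At the adjusted p alone, 594 genes were higher (10.9%) and 733 lower (13.5%). The median difference was 1.53 over the called higher genes, -1.35 over the called lower genes and 0.00 over all genes. For 44 of the 46 higher genes and 88 of the 88 lower genes the 4 late values lay entirely beyond the 4 early ones. Over all genes this held for 9.89% upward and 12.6% downward. The called genes had been picked on these same values, which favours such a gap, so this contrast is no independent support for the calls. The higher genes had the larger errors, with a median SE of 0.34 against 0.22 for the lower genes, and 41 of the 46 were lowest in the 94 and 102 min arrays while 37 were highest in the 142 and 150 min arrays. The count of higher genes leaned on the arrays at the outer ends, and was 21 without the 94 min array, 24 without the 102 min array, 21 without the 142 min array and 17 without the 150 min array, against 42 to 47 without any other array. The count of lower genes stayed between 71 and 93 under the same omissions. With either course alone, 2 arrays against 2, no gene was called by limma, while at an unadjusted p under 0.05 replicate 1 gave 442 higher and 558 lower genes and replicate 2 gave 582 and 653. The direction of all 134 called genes was the same in each course alone. Both courses had entered the fit that picked these genes, so the shared direction is no independent replication.

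Genes that act at Start and in DNA replication were among those lower late. Of the 15 measured G1 cyclin and Start genes 8 fell and 0 rose, against 1.61% of all genes called lower, with a median difference of -1.04. PCL1, a cyclin of the Pho85 kinase that acts in G1, had the largest fall of all 5449 genes. Its level was 11.03, 10.96, 10.10 and 10.36 in the early window and 8.74, 8.82, 7.94 and 7.99 in the late one, a difference of -2.24 ± 0.29 (SE, adjusted p = 0.00768), or 4.72-fold. Every late value lay below every early one, and within each window the level kept dropping with time in both courses. CLN2, a G1 cyclin that drives Cdk1 through Start, stood at 11.27, 11.54, 10.63 and 11.13 and then at 9.54, 10.03, 8.56 and 9.17, a difference of -1.82 ± 0.28 (SE, adjusted p = 0.00883). Its close relative CLN1 differed by -1.55 ± 0.26 (SE, adjusted p = 0.0102), from 10.58, 10.50, 9.82 and 10.36 to 9.06, 9.29, 8.34 and 8.38, again with no overlap. TOS6, an SBF target of the cell surface, moved by -1.43, a call lost without the 94, 102 or 150 min array, and MNN1, a mannosyltransferase, by -1.32. The S-phase cyclins CLB5 and CLB6, which belong to the same list, differed by -0.91 and -0.68, past the adjusted p but short of the 2-fold line. The count for this list was 6 to 9 when any of the 8 arrays was left out.

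Of 29 DNA polymerase and fork genes 14 fell and 0 rose, against 1.61% of all genes called lower, with a median difference of -0.82. At the adjusted p alone 27 were lower, against 13.5% of all genes. CDC45, part of the helicase that unwinds DNA at the fork, stood at 10.70, 10.66, 10.10 and 10.10 early and at 8.98, 9.12, 8.27 and 8.30 late, a difference of -1.72 ± 0.25 (SE, adjusted p = 0.0078). Its lowest early value, 10.10, stood well above its highest late value, 9.12. DPB2, a subunit of DNA polymerase epsilon, differed by -1.69 ± 0.20 (SE, adjusted p = 0.00768), from 11.07, 11.28, 10.47 and 10.81 to 9.31, 9.64, 8.81 and 9.10. POL12, the regulatory subunit of DNA polymerase alpha, moved from 11.39, 11.49, 10.72 and 10.89 to 9.54, 9.87, 9.12 and 9.26, by -1.68 ± 0.22 (SE, adjusted p = 0.00768). POL1, the catalytic subunit of that polymerase, differed by -1.64 ± 0.27 (SE, adjusted p = 0.00975) and was likewise without overlap. The count for this list stayed at 13 or 14 with any array left out. Among 8 genes of nucleotide supply, CDC21, the thymidylate synthase, and RNR1, the large subunit of ribonucleotide reductase, were the 2 that fell. CDC21 read 10.99, 11.03, 10.59 and 10.67 and then 9.49, 9.70, 8.49 and 8.55, a difference of -1.77 ± 0.30 (SE, adjusted p = 0.0102). RNR1, a bright probe set, read 13.77, 13.65, 13.39 and 13.48 and then 12.57, 12.56, 11.56 and 11.65, by -1.49 ± 0.26 (SE, adjusted p = 0.0113). The small reductase subunits RNR2 and RNR4, named after their values were seen, differed by -0.04 and 0.11 and did not pass the test.

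Sister chromatid cohesion and repair genes moved with the replication genes. Of 10 cohesin and cohesion genes 6 fell and 0 rose, against 1.61% of all genes called lower, with a median difference of -1.20. At the adjusted p alone all 10 were lower, against 13.5% of all genes. MCD1, the cohesin subunit that separase cuts at anaphase, had the second largest fall in the table. It stood at 11.54, 11.35, 10.96 and 11.14 early and 9.66, 9.83, 8.73 and 8.79 late, a difference of -1.995 ± 0.28 (SE, adjusted p = 0.00768). PDS5, which holds cohesin on chromosomes, went from 11.72, 11.61, 11.22 and 11.58 to 10.14, 10.44, 9.003 and 9.19, by -1.84 ± 0.33 (SE, adjusted p = 0.0114). Its early values ranged over 0.50, against a difference of -1.20 ± 0.11 (SE) from the 126 and 134 min arrays to the 142 and 150 min arrays. SMC3, a core cohesin ATPase, differed by -1.61 ± 0.23 (SE, adjusted p = 0.00768). Of 7 measured mismatch and recombination repair genes 5 fell, against 1.61% of all genes. At the adjusted p alone all 7 were lower, against 13.5%. MSH6, which recognises mismatched bases, read 11.59, 11.52, 11.04 and 11.13 and then 9.95, 10.15, 9.14 and 9.16, a difference of -1.72 ± 0.27 (SE, adjusted p = 0.0089). RAD53, the checkpoint kinase of replication stress, differed by -1.58 ± 0.21 (SE, adjusted p = 0.00768), and PMS1, a mismatch repair protein, by -1.35 ± 0.17 (SE, adjusted p = 0.00768). The cohesin and repair counts were 6 and 5 with any of the 8 arrays left out.

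The core histone genes, the usual mark of S phase, did not pass the test. All 7 measured members were lower late on average, by 0.19 to 0.47, and 0 passed even the adjusted p alone. HHT1, a histone H3 gene, stood at 13.58, 13.48, 13.78 and 13.74 early and 13.47, 13.44, 12.96 and 12.84 late, a difference of -0.47 ± 0.16 (SE, adjusted p = 0.0741). The values at 126 and 134 min were close to those at 94 and 102 min, and the 142 and 150 min values lay below all others. HTA1, a histone H2A gene, differed by -0.44 ± 0.16 (SE, adjusted p = 0.092) with the same order. Histone genes exist in near-identical copies, and how far their probe sets tell the copies apart was not tested.

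Of 14 measured transcription factors of the cycle 3 were called lower and 1 higher, against 1.61% and 0.844% of all genes. The other 10 were not called. SWI4, the DNA-binding subunit of SBF, stood at 10.23, 10.04, 9.29 and 9.21 and then at 8.37, 8.02, 8.27 and 8.15, a difference of -1.49 ± 0.24 (SE, adjusted p = 0.00926), and was level from 126 min on. YOX1, a homeodomain repressor of Mcm1 targets in early G1, went from 11.50, 11.66, 10.78 and 11.08 to 9.60, 9.78, 9.01 and 9.25, by -1.85 ± 0.23 (SE, adjusted p = 0.00768). HCM1, the forkhead factor of S phase, was the remaining factor that fell, with a difference of -1.15 ± 0.23 (SE, adjusted p = 0.0137), and is named after its values were seen. The factors that fell numbered 2 without the 142 or the 150 min array. SWI5 was the 1 factor that rose, a call lost without the 94, 102, 126, 134, 142 or 150 min array, and stands with the CLB2 cluster below. The genes for the activators of that cluster, MCM1, FKH2 and NDD1, also named after their values were seen, differed by 0.08, 0.23 and -0.37 and did not pass. SWE1, the kinase that inhibits Cdk1 until a bud has formed, and HSL1, the septin-bound kinase that removes it, were the 2 of 8 Cdk1 and morphogenesis genes that fell. SWE1 differed by -1.22 ± 0.22 (SE, adjusted p = 0.0113), from 11.02, 10.80, 10.63 and 10.88 to 9.96, 10.03, 9.27 and 9.18. HSL1 read 11.69, 11.51, 11.45 and 11.71 and then 10.60, 10.90, 9.80 and 9.98, a difference of -1.27 ± 0.24 (SE, adjusted p = 0.0121). CDC28 itself, the Cdk1 gene, differed by -0.60 ± 0.08 (SE, adjusted p = 0.00768), short of 2-fold.

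Few bud growth and wall genes passed the 2-fold line, while 7 of 20 polarity and bud site genes and 7 of 20 cell wall genes were lower at the adjusted p alone, against 13.5% of all genes. AXL2, the landmark for axial budding, was the 1 of 20 polarity and bud site genes that fell. It stood at 12.17, 12.06, 11.80 and 11.82 early and 10.73, 10.72, 9.51 and 9.66 late, a difference of -1.81 ± 0.31 (SE, adjusted p = 0.0105), while CDC42, the central polarity GTPase, differed by -0.08 and did not pass. Of 20 cell wall genes 3 fell, MNN1 with the chitin transglycosylase CRH1 and the glucanase family protein SCW10, the last lost without the 142 or 150 min array. CRH1 went from 12.81, 12.85, 12.29 and 12.33 to 11.30, 11.36, 11.54 and 11.52, by -1.14 ± 0.15 (SE, adjusted p = 0.00768), and SCW10 differed by -1.06 ± 0.21 (SE, adjusted p = 0.0137). PRY2, a secreted sterol-binding protein, read 12.99, 12.88, 12.52 and 12.47 and then 11.58, 11.48, 10.57 and 10.64, a difference of -1.65 ± 0.27 (SE, adjusted p = 0.00973). CSI2 differed by -1.68 ± 0.25 (SE, adjusted p = 0.0078), and ESC8, a gene linked to silencing, by -1.66 ± 0.21 (SE, adjusted p = 0.00768). KCC4, a septin-associated kinase, fell by 1.64 ± 0.26 (SE, adjusted p = 0.00954) on the log2 scale together with its relative GIN4, named after its values were seen, at -1.35. MMP1, a permease for S-methylmethionine, was the 1 of 22 sulfate and methionine genes that fell, with a difference of -1.12 ± 0.17 (SE, adjusted p = 0.0089), and the call was lost without the 150 min array. At the adjusted p alone 9 of the 22 were lower and 0 higher, against 13.5% and 10.9% of all genes. The median difference of the 22 was -0.20.

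Genes of chromosome segregation were mostly below the 2-fold line. None of 11 spindle pole body genes was called, yet 8 were lower at the adjusted p alone, against 13.5% of all genes. All 11 had a negative difference, with a median of -0.53. BBP1, which anchors the pole body in the nuclear envelope, differed by -0.57 ± 0.06 (SE, adjusted p = 0.00768), and its values were 9.63, 9.49, 9.79 and 9.47 early against 9.23, 8.88, 9.05 and 8.95 late. Of 21 kinetochore, passenger and checkpoint genes 0 were called. At the adjusted p alone 5 were lower and 1 higher, against 13.5% and 10.9% of all genes. Of the 21 differences 8 were positive, with a median of -0.12. The 1 higher gene, the kinetochore gene NUF2, had the lowest p of the list and went against most of it, at 7.56, 7.21, 8.14 and 7.55 and then 8.69, 8.24, 8.70 and 8.29, a difference of 0.86 ± 0.13 (SE, adjusted p = 0.00809). ASE1, which bundles microtubules in the spindle midzone, was the 1 of 17 spindle genes that rose, by 1.12 ± 0.26 (SE, adjusted p = 0.0213), and was not called without the 94, 102, 142 or 150 min array. CIN8, a kinesin that pushes the poles apart, was listed at 9.51, 9.33, 9.72 and 9.77 and 9.46, 9.57, 8.61 and 8.68, and its difference of -0.50 did not pass. Of 5 condensin genes 0 were called.

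The CLB2 cluster held the largest group of genes that were higher late. Of its 18 measured members 15 rose and 0 fell, against 0.844% of all genes called higher, and the median difference was 1.56. In 17 members every late value lay above every early one, against 9.89% of all genes. The count of members that rose was 7 to 15 with any array left out, lowest without the 150 min array. HOF1, a protein of the contractile ring, had the largest difference of all genes. Its level was 7.04, 7.07, 9.06 and 8.96 in the early window and 10.78, 10.57, 11.06 and 10.90 in the late one, a difference of 2.80 ± 0.52 (SE, adjusted p = 0.0119), or 6.95-fold. The 110 and 118 min arrays lay between the 94 and 102 min arrays and the late window, so the early SD was 1.13 against 0.207 late. KIN3, a kinase of the NIMA family, stood at 7.57, 7.59, 8.08 and 7.84 and then at 9.68, 9.52, 10.49 and 10.30, a difference of 2.23 ± 0.23 (SE, adjusted p = 0.00768). CHS2, the chitin synthase that builds the primary septum, went from 8.79, 8.76, 10.66 and 10.37 to 11.82, 11.65, 11.97 and 11.96, by 2.20 ± 0.46 (SE, adjusted p = 0.0163), a call lost without the 150 min array. SWI5, the activator of the next set of genes, read 7.91, 7.84, 9.96 and 9.51 and then 10.92, 10.66, 10.86 and 10.82, a difference of 2.01 ± 0.49 (SE, adjusted p = 0.0255). The cytokinesis list shares HOF1, CHS2, MYO1 and IQG1 with this cluster, and these are the 4 of its 18 members that rose.

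Among the 6 B-type cyclins 1 rose, and 0 did without the 94, 102, 126, 134, 142 or 150 min array. CLB2, the main mitotic cyclin, stood at 8.90, 8.72, 10.83 and 10.32 early and at 11.51, 11.20, 11.47 and 11.39 late, a difference of 1.70 ± 0.46 (SE, adjusted p = 0.0367). CLB1, its closest relative, read 8.82, 8.78, 10.71 and 10.73 and then 11.41, 11.48, 11.06 and 11.25, and with a difference of 1.54 ± 0.51 (SE, adjusted p = 0.0637) it was not called in the window comparison. Both were high from 110 min on, and their low values came from the 94 and 102 min arrays. CLB3 and CLB4 differed by -0.31 and -0.09. CDC20, the activator of the anaphase-promoting complex, was the 1 of 15 genes of that list that rose. Its values were 8.47, 8.48, 9.10 and 9.05 and 10.33, 10.06, 10.55 and 10.48, a difference of 1.58 ± 0.18 (SE, adjusted p = 0.00768). Of 18 anaphase and mitotic exit genes 4 rose and 1 fell, and the 4 are all CLB2 cluster members, with 2 or 3 rises left when any array was left out. SPO12, which promotes release of the Cdc14 phosphatase, went from 8.63, 8.64, 8.998 and 8.71 to 9.93, 9.84, 10.47 and 10.40, by 1.41 ± 0.16 (SE, adjusted p = 0.00768). CDC5, the polo kinase, read 9.39, 9.61, 10.91 and 10.79 and then 11.58, 11.61, 11.57 and 11.52, a difference of 1.39 ± 0.36 (SE, adjusted p = 0.0297), with the call lost without the same 6 arrays as for CLB2. MOB1, the partner of the Dbf2 kinase, differed by 1.12 ± 0.19 (SE, adjusted p = 0.0102) and was not called without the 94 min array. CDC14 itself differed by 0.11 and did not pass, and SLK19, a spindle and kinetochore protein named after its values were seen, was the member that fell, with a difference of -1.01 ± 0.26 (SE, adjusted p = 0.0289), close to the 2-fold line and not called without the 94, 102, 118, 142 or 150 min array.

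**Figure D2:**
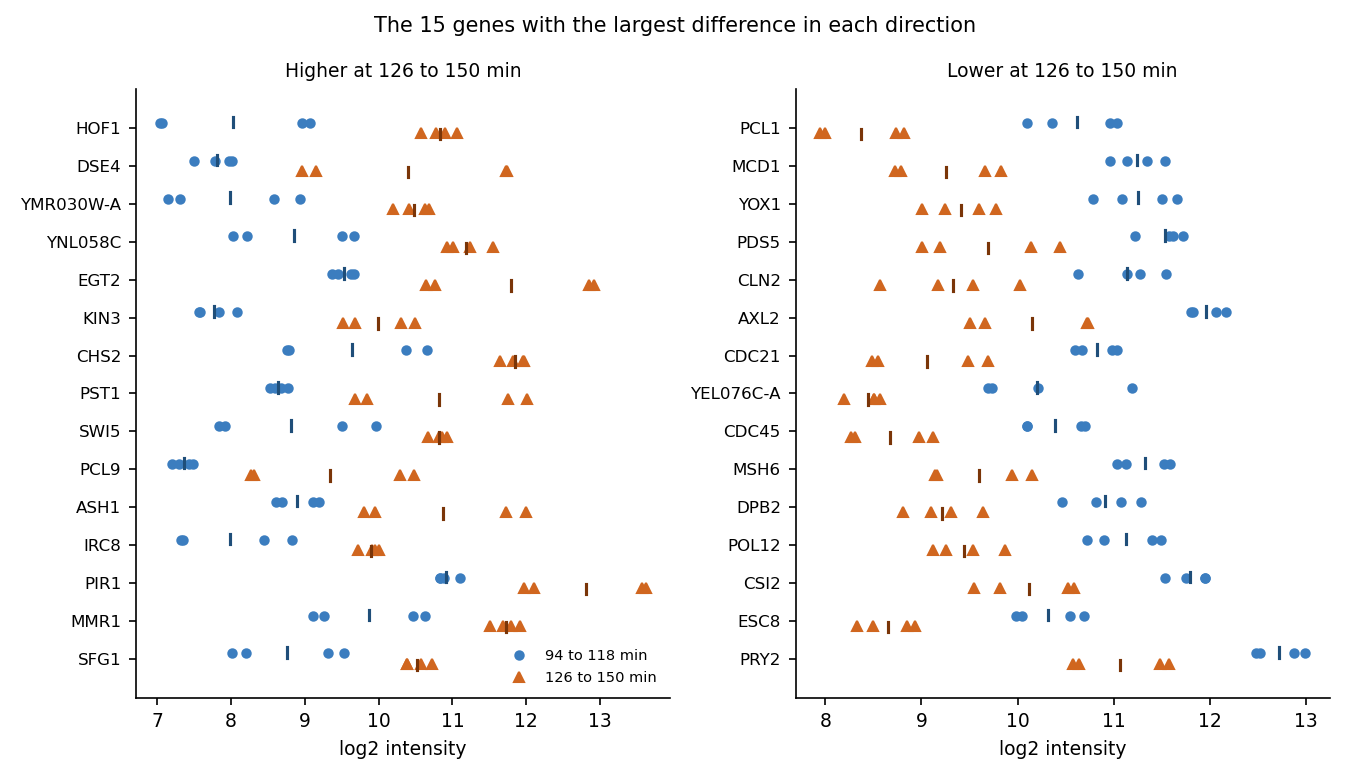
Log2 intensity (horizontal axis) of the 15 called genes with the largest difference in each direction, with the 4 arrays at 94 to 118 min as blue circles, the 4 at 126 to 150 min as orange triangles and the window means as vertical ticks. Only genes whose windows did not overlap within either course were eligible. The 4 late values lie beyond the 4 early ones for each gene shown, which that choice favours. HOF1 moves from a mean of 8.03 to 10.83 while PCL1 moves from 10.61 to 8.38.

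Among the 15 genes with the largest rise, 6 gained most from the 126 and 134 min arrays to the 142 and 150 min arrays, DSE4, EGT2, PST1, PCL9, ASH1 and PIR1. The calls of these 6 genes depended on single arrays, and 0 of them were called without the 94, 102 or 150 min array, 1 without the 110, 118 or 142 min array, and all 6 without the 126 or the 134 min array. DSE4, a glucanase that daughter cells use to cut the septum, stood at 7.78, 8.02, 7.50 and 7.97 early and at 8.97, 9.15, 11.74 and 11.73 late, a difference of 2.58 ± 0.70 (SE, adjusted p = 0.0354). The 142 and 150 min arrays were over 2 log2 units above the 126 and 134 min arrays, which were themselves above the early window. EGT2, a wall protein of cell separation, read 9.37, 9.66, 9.63 and 9.45 and then 10.77, 10.63, 12.91 and 12.84, a difference of 2.26 ± 0.57 (SE, adjusted p = 0.0289). ASH1, the daughter repressor of mating type switching, went from 9.11, 9.19, 8.69 and 8.61 to 9.96, 9.80, 11.99 and 11.72, by 1.97 ± 0.53 (SE, adjusted p = 0.0356). PST1 and PIR1, wall proteins, differed by 2.17 ± 0.55 (SE, adjusted p = 0.0296) and 1.90 ± 0.41 (SE, adjusted p = 0.0184), and PCL9, a Pho85 cyclin, by 1.98 ± 0.55 (SE, adjusted p = 0.0385). CTS1, the endochitinase of separation, was at 9.35, 9.79, 9.53 and 9.71 early and at 9.59, 9.68, 12.21 and 12.10 late, so the rise lay wholly in the last 2 arrays and the window difference of 1.30 had an adjusted p of 0.196.

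Several of the called genes were open reading frames with systematic names only. YMR030W-A lies next to HOF1 in the reference annotation and followed it, from 7.14, 7.31, 8.94 and 8.58 to 10.40, 10.20, 10.63 and 10.69, a difference of 2.49 ± 0.42 (SE, adjusted p = 0.0102). YMR001C-A, next to CDC5, differed by 1.55 where CDC5 differed by 1.39, and YBR071W, next to ALG14, by -1.12 where ALG14 differed by -1.44. Whether transcripts of neighbouring genes reach the same probes was not tested. YNL058C, whose neighbours ARP5 and OCA2 differed by 0.22 and 0.36, went from 8.03, 8.21, 9.50 and 9.67 to 10.93, 11.01, 11.23 and 11.55, by 2.33 ± 0.40 (SE, adjusted p = 0.0105). YEL076C-A and YEL076C, which overlap near a chromosome end, differed by -1.76 and -1.39. The YEL076C-A probe set is of the kind that can match several related genes, so its gene is uncertain, as for 5 of the 134 called genes. YFL064C and YFL065C, also overlapping near a chromosome end, differed by -1.26 and -1.22. Apart from YMR030W-A, YNL058C and YEL076C-A, these frames and their neighbours were named after their values were seen. MMR1, which ties mitochondria to the myosin that carries them into the bud, and SFG1, a transcription factor of filamentous growth, were called higher outside any list, at 1.86 ± 0.36 (SE, adjusted p = 0.0137) and 1.75 ± 0.34 (SE, adjusted p = 0.0137), both lost without the 150 min array. IRC8 joined them, from 7.35, 7.32, 8.83 and 8.44 to 9.95, 9.72, 10.001 and 9.90, a difference of 1.91 ± 0.34 (SE, adjusted p = 0.0115).

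Set against the background share, the fixed lists sorted by stage. The 32 lists given here hold 472 genes, of which 464 were measured, and some genes stand in more than 1 list. They hold 17 of the 46 genes that rose and 48 of the 88 that fell, so 29 and 40 called genes lie outside them. Members called lower reached 5 of 7 for mismatch and recombination repair, 6 of 10 for cohesion, 8 of 15 for Start and 14 of 29 for the fork, against 1.61% of all genes. Members called higher reached 15 of 18 for the CLB2 cluster, against 0.844%.

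**Figure D3:**
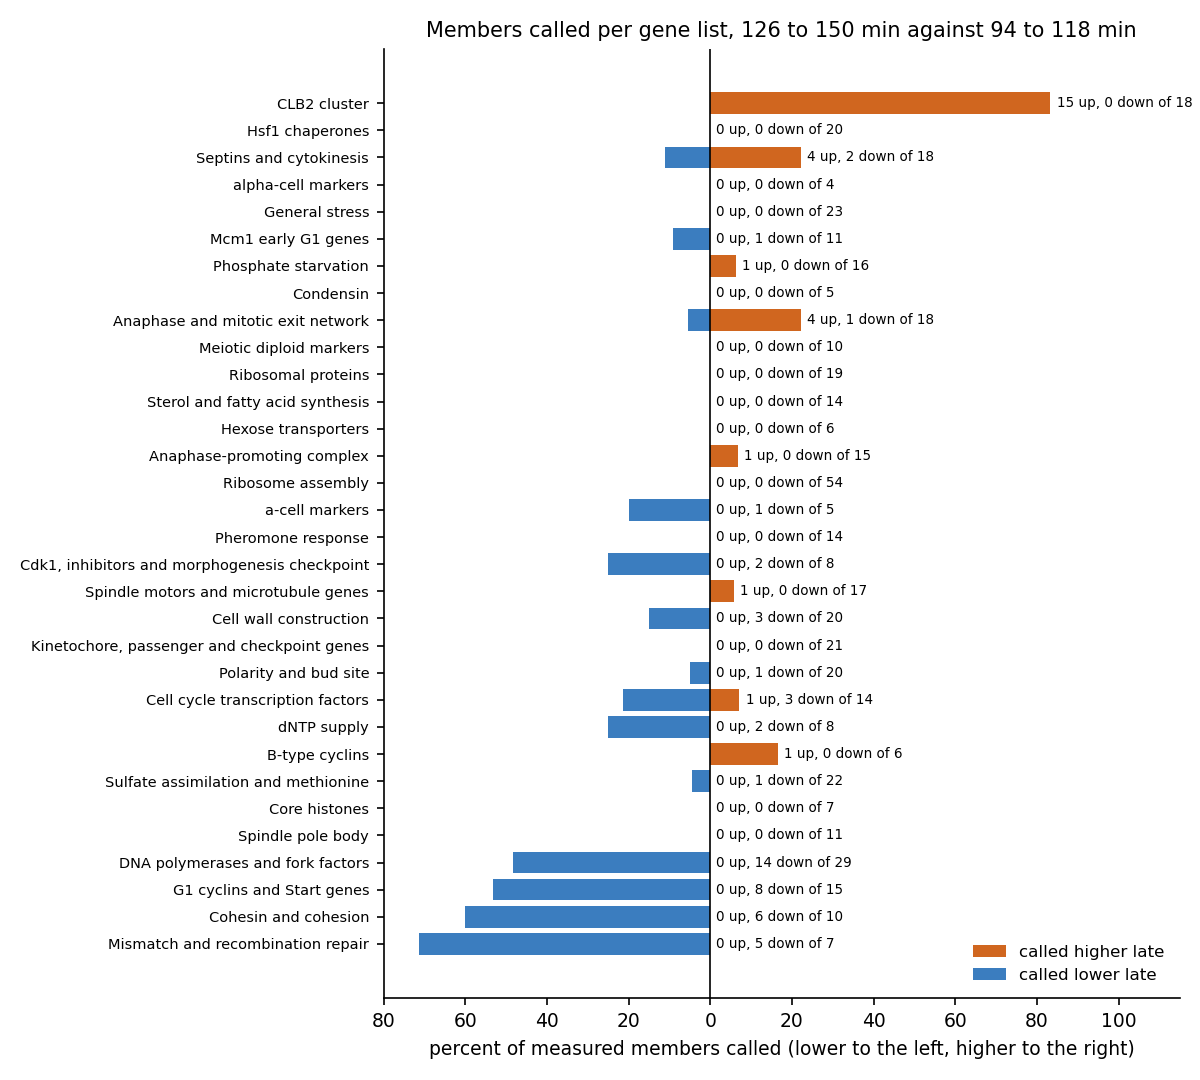
Percent of the measured members of each of 32 gene lists (horizontal axis) that were called lower late, to the left in blue, and higher late, to the right in orange, with the lists ordered by median difference and the counts printed beside them. The CLB2 cluster stands alone at the top with 15 of 18 members higher, and the repair, cohesion, Start and fork lists hold most of the lower calls.

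The order of the changes was read from 4 pairs of arrays, 94 with 102 min, 110 with 118 min, 126 with 134 min and 142 with 150 min, each pair taking 1 array from each course. In every pair replicate 2 was sampled 8 min after replicate 1, so the course block also takes up that offset in time. The step errors leave out the drift from pair to pair, which the window errors hold, so the SEs of the 2 comparisons are not alike. From the first pair to the second, 20 genes rose (0.367%) and 5 fell (0.0918%), or 25 of 5449 in all (0.459%). The next step brought 19 rises (0.349%) and 24 falls (0.44%), 43 in all (0.789%), and the last step 29 rises (0.532%) and 4 falls (0.0734%), 33 in all (0.606%). These counts were 24 to 33, 33 to 55 and 29 to 40 for both directions together with any array left out. CLB2 cluster members made up 9 of the rises in the first step and 6 in the second, and 0 in the third. HOF1 rose by 1.96 ± 0.07 (SE) and then by 1.66 ± 0.07, CLB1 by 1.92 ± 0.06 and SWI5 by 1.86 ± 0.10 in the first step. KIN3 was later, with 0.38 ± 0.07 in the first step, which was not called, and 1.64 ± 0.07 in the second, with an adjusted p of 0.000536. CDC20 and SPO12 also passed in the second step only, at 1.12 ± 0.08 and 1.03 ± 0.08. The cluster thus held members that passed in the first step alone, among them CLB2 at 1.77 ± 0.10, and members that passed in the second alone.

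The largest rise in any of the 3 steps, over all genes, was that of DSE4 in the last one. DSE4 rose by 1.33 ± 0.11 and then by 2.67 ± 0.11, with an adjusted p of 0.00015 for the last step. CTS1 passed in the last step alone, at 2.51 ± 0.12, as did DSE1, a daughter-specific wall protein gene, at 2.30 ± 0.07. DSE1 had been at 7.11, 7.48, 6.96 and 7.48 and at 6.83 and 7.30 before it reached 9.22 and 9.50, and is thus low in 6 of 8 arrays. The falls centred on the middle step, where PCL1 moved by -1.45 ± 0.08 (SE) and MCD1 by -1.31 ± 0.10. In the last step PDS5, AXL2 and TOS6 passed, at -1.20 ± 0.11, -1.14 ± 0.07 and -1.19 ± 0.07. NCA3 and PRY1, the latter a relative of PRY2, passed in the first step, at -1.37 ± 0.09 and -1.22 ± 0.06. YGP1, a secreted glycoprotein of the wall, went down and came back. MCM5, a subunit of the replicative helicase loaded in G1 and named after its values were seen, did likewise at -1.10 ± 0.08 and 1.11 ± 0.08, and was the 1 member of the 11 Mcm1 early G1 genes to pass in the last step. YGP1 read 11.07, 10.79, 9.67 and 9.55 and then 11.59, 10.72, 12.66 and 11.82, with steps of -1.32 ± 0.19, 1.54 ± 0.19 and 1.09 ± 0.19, each of them called.

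**Figure D4:**
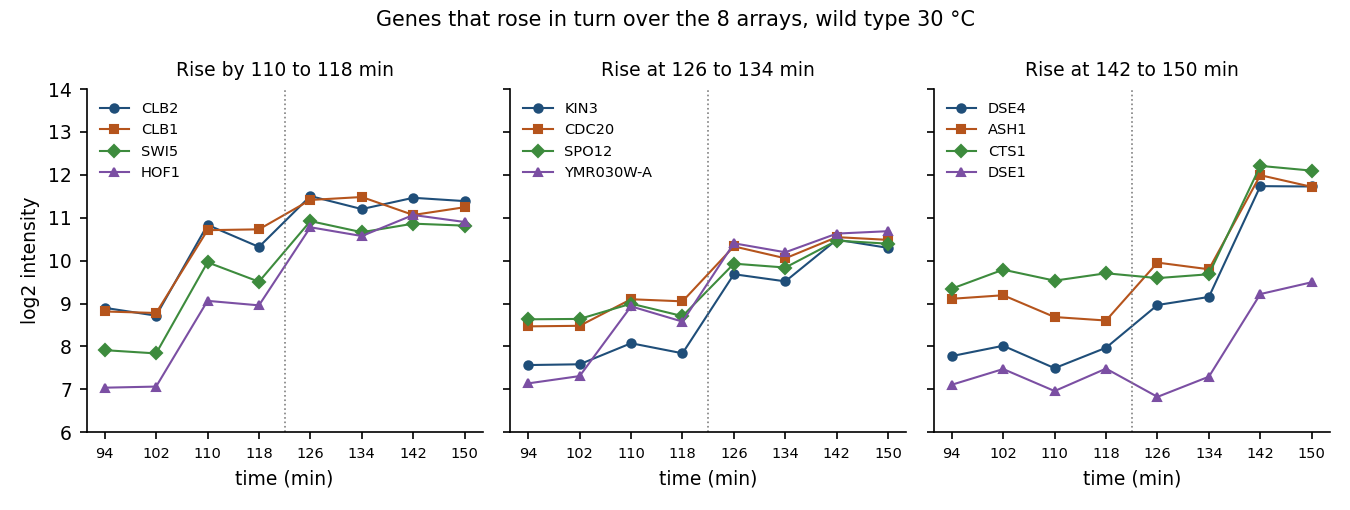
Log2 intensity (vertical axis) of 12 genes in the 8 wild-type arrays against time in minutes, in 3 panels by the time of their rise, with arrays of both courses joined in order of time and a dotted line between the windows. CLB2, CLB1, SWI5 and HOF1 are up at 110 min, KIN3, CDC20 and SPO12 at 126 min, and DSE4, ASH1, CTS1 and DSE1 gain most at 142 min. YMR030W-A, drawn in the middle panel, is already up at 110 min, like HOF1, and rises again at 126 min.

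Lists outside the cell cycle held few called genes. At the adjusted p alone, the shares over all genes were 10.9% higher and 13.5% lower. None of 54 ribosome assembly genes and none of 19 measured ribosomal protein genes was called, and their medians were -0.05 and 0.01. At an unadjusted p under 0.05 limma gave 2058 genes in the whole table, and 1 ribosome assembly gene and 0 ribosomal protein genes passed the adjusted p alone. Of 14 pheromone response, 14 sterol and 6 measured hexose transporter genes, 0 were called, though 4 pheromone response genes and 1 sterol gene were lower at the adjusted p alone. RPL3, a protein of the large subunit, stood at 14.34, 14.40, 14.32 and 14.39 and 14.33, 14.40, 14.36 and 14.34, which overlap fully. Of 20 heat shock chaperones 0 were called, with a median of 0.26. At the adjusted p alone 12 were higher, against 10.9% of all genes. SSA1, an Hsp70, was at 12.36, 12.62, 12.54 and 12.78 and then at 12.82, 13.04, 13.06 and 13.17, a difference of 0.45 ± 0.08 (SE, adjusted p = 0.0105). Among 23 general stress genes 5 were higher and 2 lower at the adjusted p alone, and TPS1, the trehalose phosphate synthase, differed by 0.49 ± 0.10 (SE, adjusted p = 0.0131). PHO3, an acid phosphatase, was the 1 of 16 phosphate genes that rose, from 11.44, 11.79, 11.07 and 11.58 to 12.23, 12.34, 12.65 and 12.77, by 1.03 ± 0.15 (SE, adjusted p = 0.008), and was not called without the 110, 142 or 150 min array. At the adjusted p alone 6 of the 16 were higher and 0 lower, against 10.9% and 13.5% of all genes. PHO5, the phosphatase that phosphate starvation induces, differed between the courses more than between the windows. It lay at 8.97 to 9.44 in replicate 1 and at 10.19 to 12.07 in replicate 2.

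Markers of other cell kinds were read in the same arrays. The 5 a-cell markers of the labelled MATa cells had means of 11.64 to 12.37 over the 8 arrays, the 4 alpha-cell markers 8.23 to 8.67 and the 10 meiotic markers 7.61 to 7.93. The files give no detection calls, and levels of different probe sets cannot be ranked against each other. MFA1, which encodes the a-factor pheromone, was the 1 of these 19 genes called, and fell from 13.32, 13.28, 12.81 and 12.68 to 12.03, 11.98, 11.85 and 11.91, a difference of -1.08 ± 0.15 (SE, adjusted p = 0.00768), and the call was lost without the 94 or the 102 min array. SPS4, a sporulation gene, read 7.35, 7.28, 8.02 and 7.54 and then 8.54, 8.41, 8.47 and 8.44, with a difference of 0.92 ± 0.14 (SE, adjusted p = 0.0089) that was short of 2-fold.

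The cyclin mutant, which lacks the CLB1 to CLB6 genes apart from the GAL1-CLB1 copy, was compared over the same times to ask which changes differ in cells with B-type cyclins. In the mutant 15 genes were higher late (0.275%) and 64 lower (1.17%). Of the 88 genes that fell in wild type 49 also fell in the mutant and 0 rose, and the median mutant difference over the 88 was -1.10. Of the 46 that rose in wild type 4 rose in the mutant and 2 fell, and the median mutant difference was 0.40. The difference between the strains was tested directly, as the wild-type change minus the mutant change, and 42 genes were called (0.771%), 32 with wild type above (0.587%) and 10 with wild type below (0.184%). These 42 include 17 genes that rose in wild type, 5 that fell and 20 not called there. The count rested on all 4 courses, and was 23 without wild-type replicate 1, 7 without wild-type replicate 2, 1 without mutant replicate 1 and 0 without mutant replicate 2, where 950 genes had an unadjusted p under 0.05.

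KIN3 differed most between the strains among genes called in wild type. In the mutant it stood at 10.56, 10.68, 9.88 and 10.33 at 94 to 118 min and at 8.95, 9.45, 8.28 and 8.63 at 126 to 150 min, so it fell there, and the difference in change was 3.77 ± 0.37 (SE, adjusted p = 0.000963). HOF1 was flat in the mutant, at 6.80, 7.08, 6.64 and 7.04 and then 6.61, 6.98, 6.65 and 6.98, and the difference in change was 2.89 ± 0.56 (SE, adjusted p = 0.0143). YMR030W-A beside it differed by 2.66 ± 0.46 (SE, adjusted p = 0.00701), and ASH1 by 2.47 ± 0.60 (SE, adjusted p = 0.0278). PHO3 rose in wild type and fell in the mutant, with a change of -1.21 there, with a difference in change of 2.24 ± 0.34 (SE, adjusted p = 0.00462). The mutant median over the 18 CLB2 cluster genes was 0.36. Of these genes, 8 were called for the strain difference, all with wild type above, against 0.587% of all genes. CDC20 and SPO12 were among them, at 1.79 ± 0.23 (SE, adjusted p = 0.00273) and 1.58 ± 0.19 (SE, adjusted p = 0.00144). CLB2, at 1.80 ± 0.51 (SE, adjusted p = 0.0476), is itself disrupted in the mutant, so its value there is no check of regulation. CHS2 and SWI5 had differences in change of 1.36 and 1.09 and did not pass, with mutant changes of 0.85 and 0.92. NIS1, a bud neck protein gene named after its values were seen, rose by 1.51 in wild type and by 1.53 in the mutant.

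Wild type fell further than the mutant for 5 genes that fell in wild type. GAS2, of a family that remodels wall glucan, read 11.37, 11.32, 11.20 and 10.93 and then 10.24, 9.996, 9.37 and 9.13 in wild type, a difference of -1.52 ± 0.24 (SE, adjusted p = 0.00926), and its difference in change was -1.32 ± 0.27 (SE, adjusted p = 0.0172). PRY2, CLN2, CSI2 and MHT1, a homocysteine methyltransferase, followed at -1.24, -1.21, -1.10 and -1.03. The wild-type call of MHT1 was lost without the 118, 142 or 150 min array. The mutant changed by -0.61 for CLN2, against -1.82 in wild type. None of the 29 fork genes, the 10 cohesion genes or the 7 repair genes was called for a strain difference, and their mutant medians were -0.66, -0.78 and -1.07. POL1 changed by -1.38 in the mutant and -1.64 in wild type, and MCD1 by -1.31 and -1.995. A difference that misses the threshold does not show that the strains act alike, and the SE of these differences in change was 0.38 for POL1 and 0.38 for MCD1. Strain and any delay of the mutant against the clock cannot be told apart at equal times.

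**Figure D5:**
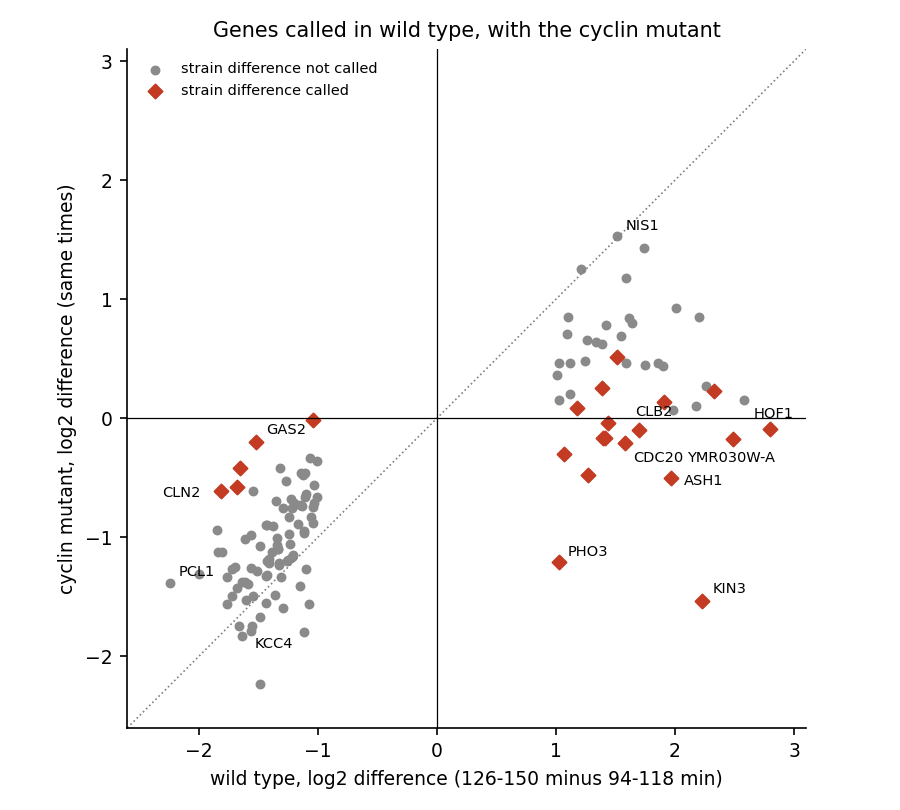
Change from the early to the late window in the cyclin mutant (vertical axis) against wild type (horizontal axis), both as log2 differences, for the 134 genes called in wild type, with red diamonds for the 22 genes whose change differed between the strains and a dotted line of equal change. The genes that fell in wild type lie near the line on the lower left, and most of those that rose lie below it, KIN3 at -1.54 in the mutant against 2.23 in wild type.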

How the data were processed

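Members and gene lists were chosen with earlier results of these data known. Total RNA was measured on Affymetrix arrays, and the deposited intensity values are on a linear scale, from 22.2 to 35171; per the submitters' processing notes the authors used affy, with the summary and normalization steps not given in the sources used here. The plan to take log2 was kept, with a pseudocount of 0. Of 5900 probe sets, 184 were controls, 218 others had no gene name and 5498 had 1, after 12 symbols were updated through gene identifiers. For 47 genes the probe set of highest mean was kept, leaving 5449 genes. Columns not used numbered 0.

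The windows were compared with limma 3.58.1 in R 4.3.3 (lmFit and eBayes), with the time course as a block and 5 residual degrees of freedom. P-values were adjusted by the Benjamini-Hochberg method over all 5449 genes, and calls needed an adjusted p under 0.05 with a log2 difference of at least 1. Steps were contrasts of 4 pairs of arrays, with 3 residual degrees of freedom. The strain difference was an interaction over 16 arrays with 4 course blocks. The same-numbered arrays of the 2 windows come from the same course, and the course difference early and late correlated at 0.736 across genes. The number of arrays limits precision. Per direction the 15 genes of largest difference are named, among called genes whose windows did not overlap within either course. Named too are up to 3 called members and the leading member of each list, 5 genes per direction of strain difference and 3 per direction and step. The fits were tested on simulated data with independent noise per array, which did not hold the drift within a window. Besides these 16 arrays, the other wild-type arrays at 30 °C enter the list means over the course and all arrays the choice of probe set, and the rest are not analysed here. Of the gene lists, 1 is not reported here.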

Additional observations from a re-analysis of the deposited data

Results flagged for a closer look

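Dixon's test was run on 196 sets of 4 arrays, from the named genes, the median intensity and the TDH1 and ACT1 control measures. In 5 sets it placed a value far from the other 3, and chance gives such a value in about 5% of sets. YCS4 read 10.78 at 118 min, above its other early values, and MET3 read 9.26 and MHT1 10.31 at the same time, so 3 of the 5 fall on the 118 min array of replicate 2. YEL076C-A read 8.19 at 134 min, below its other late values. MF(ALPHA)2 read 8.96 at 142 min, below its other late values.

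For 18 of 95 named genes the change between the windows differed between wild type and the cyclin mutant by the test of that difference, 13 with wild type above and 5 with wild type below. The wild-type change minus the mutant change, on the log2 scale, was 3.77 for KIN3, 2.89 for HOF1, 2.66 for YMR030W-A and 2.47 for ASH1. It was 2.24 for PHO3, 2.16 for YGP1, 2.10 for YNL058C, 1.80 for CLB2, 1.79 for CDC20 and 1.77 for IRC8. SPO12 had 1.58, PHO5 1.38 and SPS4 1.05. On the other side GAS2 had -1.32, PRY2 -1.24, CLN2 -1.21, CSI2 -1.10 and MHT1 -1.03. PHO5 is also a gene whose level differed between the wild-type courses, and CLB2 is disrupted in the mutant. The part of either fact in these values was not tested.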

How the results depend on the processing

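With replicate 2 in its deposited row order, 0 genes were called higher and 0 lower by limma (394 and 415 at an unadjusted p under 0.05), 0 for the strain difference (1111) and 0, 0 and 0 for the 3 steps (96, 62 and 50); that order pairs values of different genes. With replicate 1 or replicate 2 left out, 0 genes were called in either direction in both cases, on 4 arrays. Any 1 array left out gave 17 to 47 higher and 71 to 93 lower genes. The strain difference gave 0 to 23 genes with a course left out. The replicate block moved little: without it 44 genes were higher, 88 lower, 32 differed by strain, and the steps gave 23, 38 and 30. Quantile normalization, a pseudocount of 100, a filter on the dimmest genes, probe-set means, course means, eBayes with trend and robust settings, and leaving out the 118 and 126 min arrays gave 37 to 51 higher and 74 to 99 lower genes. All 134 called genes kept their sign wherever tested, except that 131 did in the deposited row order. Signs turned in that order for POL1 (0.217), CDC14 (-0.0156), CDC3 (-0.0935), CDC42 (0.000433), RPL3 (0.341) and MF(ALPHA)1 (-0.0087), and of these only POL1 had been called. Values near 0 also turned. With a replicate left out CDC3 ranged from -0.0280 to 0.137, ERG1 from -0.0560 to 0.0341 and RPL3 from -0.0197 to 0.0170. RPL3 was 0.00135 without the 118 and 126 min arrays and ERG1 0.0130 after quantile normalization. The cause of these moves was not tested. With 2 cultures, spread between cultures is poorly known.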

Other observations

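Some called genes lie outside every list, and the following were chosen after their values were seen, with no list of their kind fixed and no count of others like them. PUT4, the proline permease, differed by 1.27, DIP5, a permease for acidic amino acids, by 1.01, and CAR2, an enzyme of arginine breakdown, by 1.10 on the log2 scale. TPO3, a polyamine transporter, differed by 1.18 and GPD1, which makes glycerol, by 1.11. The change of PUT4 and TPO3 differed between wild type and the cyclin mutant, where they changed by -0.48 and 0.09. Of the genes called lower, ASF1, a histone chaperone, differed by -1.60, SPT21, an activator of histone genes, by -1.36, and HIF1, a partner of histone acetylation, by -1.13.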
